A study of Drosophila melanogaster with 2 samples.

Results

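The genes described here are 10 components and targets of the Notch signalling pathway in Drosophila melanogaster, out of 18164 annotated genes on the main chromosome arms. They were listed by name: the ligand genes Dl and Ser, the receptor gene N, the ligand regulator neur, the nuclear components Su(H), H and mam, the Notch regulator numb, and the target genes E(spl)m3-HLH and E(spl)m7-HLH. Each was found by its symbol in the Ensembl release 115 annotation, where Dl is called Delta, and all coordinates are in the dm6 build. The measurement was chromatin immunoprecipitation and sequencing (ChIP-seq) of the CG11398 protein in whole embryos collected from 0 to 24 h, males and females together. The embryos came from 1 transgenic line that stably expresses CG11398 joined at its C terminus to eGFP, and chromatin was precipitated with an antibody against GFP. All samples therefore carry the same transgene, and the promoter driving it is not given in the sources used here. Whole embryos mix all tissues and stages, so a region marked in a few cells and one marked weakly in many cannot be told apart. There were 2 biological replicates in 1 group, numbered 1 and 3, with no second condition.

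In Notch signalling, a ligand on one cell binds the receptor on its neighbour, and cleavage releases the intracellular part of the receptor. That part enters the nucleus and joins the DNA-binding protein Su(H) and the coactivator Mastermind to switch on target genes. The best known targets in the fly are the E(spl) genes, most of which encode repressors of the basic helix-loop-helix (bHLH) family. In the embryo the pathway holds back neighbouring cells from becoming neuroblasts, a process called lateral inhibition.

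The authors deposited lists of regions, each with a summit and a signal value whose normalization is not stated. The list from the pooled replicates held 30000 relaxed regions, weak background included, with signals from 22.7 to 1410. The 2712 strongest of them made up the thresholded list, so a thresholded peak is a region of pooled rank 2712 or better, with a signal of at least 79.8. Each replicate had a relaxed list of its own with 30000 regions, with a median signal of 20.3 in replicate 1 and 17.0 in replicate 3. Read depth is unknown, since no read counts were given.

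The receptor, the coactivator, the regulator numb and both E(spl) targets carried thresholded peaks near a transcription start site (TSS), and the ligands, Su(H), H and neur did not. In all, 5 of the 10 genes had a thresholded summit within 500 bp of a TSS. Of all annotated genes 10.6% had one, of protein-coding genes 12.6%, and of the genes with any pooled relaxed summit in that window 22.2%. The count of 5 is not a result about Notch genes, because these 10 were chosen when it was already known that these 5 had peaks. Among 33 other genes of the pathway, 5 had one (15.2%), beside 12.6% of protein-coding genes. The pathway list was also chosen with earlier results of these data known, so this share is not a result about Notch genes either. The number of start sites also differs between genes: of protein-coding genes with 1 TSS 8.94% had a thresholded promoter summit, and with 3 or more 30.9%. The member mam has 3 annotated start sites, numb, neur and Ser have 2, and the other 6 genes have 1.

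Weaker regions were more widespread, and 9 of the 10 genes had a relaxed summit within 500 bp of a TSS, the exception being H. Of all genes 47.5% had one. The 5 genes with a thresholded summit had to be among the 9, so only Dl, Ser, neur, Su(H) and H could vary, and 4 of these 5 had one. Their strongest promoter signals were 60.2 at Dl, 49.2 at Ser, 77.6 at neur and 65.8 at Su(H), and the median over all 8635 genes with such a summit was 46.8. Both the 47.5% and this median include the 1920 genes with a thresholded promoter summit, which always have a relaxed one. These 5 members were also chosen with earlier results of these data known, so their count is not a result about Notch genes. Among genes with a thresholded promoter summit the median was 118.3, so the signals at N, numb and mam were below the middle of the peaks at other genes, and those at both E(spl) genes above it.

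**Figure D1:**
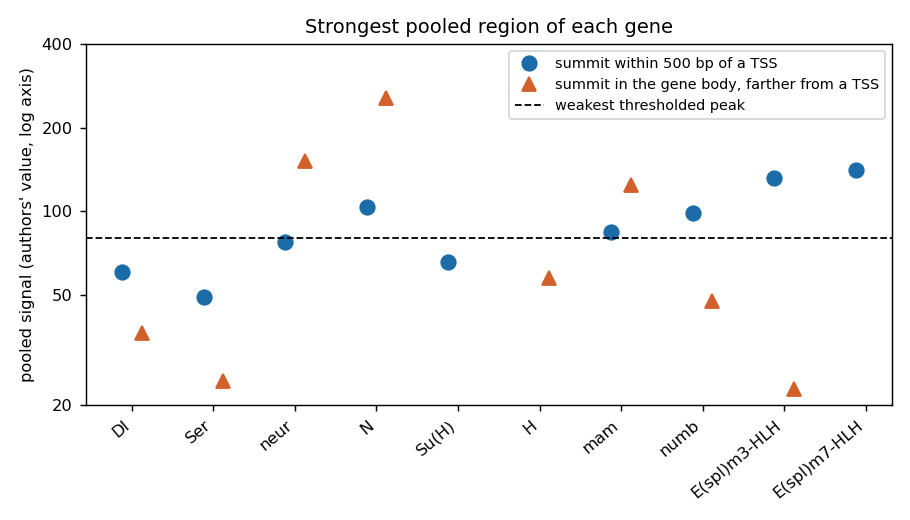
Pooled signal (log axis) of the strongest region of each gene, for summits within 500 bp of a TSS (circles) and for summits in the gene body farther away (triangles). The dashed line is the weakest thresholded peak, at 79.8. The ligands Dl and Ser lie below it at both kinds of place, the intronic region of N is highest at 255.3, and the E(spl) genes lie above it near their start sites.

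The 2 ligand genes had no thresholded peak at a promoter or in the gene body. Delta, encoded by Dl (chr3R:19302731-19326217, minus strand), and Serrate, encoded by Ser (chr3R:27172090-27194267, minus strand), are transmembrane proteins that bind the receptor. The strongest region of Dl had its summit 123 bp downstream of the TSS and a pooled signal of 60.2, at rank 4637. Replicate 1 gave it a signal of 41.2 and replicate 3 one of 21.8. The strongest region of Ser had its summit 94 bp downstream of a TSS and a pooled signal of 49.2, at rank 6857. The overlapping regions had 22.1 in replicate 1 and 33.2 in replicate 3. Their summits differed, at 104 bp upstream in replicate 1 and 93 bp downstream in replicate 3. Dl was thus higher in replicate 1, and the signal overlapping the Ser region in replicate 3. Neither region was among the 2712 strongest of either replicate. Within the 23.5 kb body of Dl there were 10 relaxed summits, and within the 22.2 kb body of Ser 3. Away from the start sites the highest signals were 36.3 in Dl and 24.4 in Ser.

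The receptor gene N (chrX:3134870-3172221, plus strand) carried the strongest peak of the 10 genes, and it was not at the promoter. Its summit lay in intron 5, which is 4.25 kb long, at 27697 bp downstream of the single TSS (chrX:3162359-3162774). The pooled signal there was 255.3, at rank 265, so 9.77% of thresholded peaks were at least as strong. The signal was 161.3 in replicate 1, at rank 167, and 99.4 in replicate 3, at rank 425. Both replicates placed it among their stronger regions, with summits 16 bp before and 9 bp after the pooled summit. A relaxed region of signal 71.0 overlapped it as a shoulder. The nearest start site of any gene was 10573 bp away, at CG18508. The promoter peak of N was weaker: it stood 69 bp upstream of the TSS with a pooled signal of 103.2, at rank 1650, and its replicate signals were 57.2 and 53.6. The other relaxed summits in the body of N had signals of 53.6 or less.

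The gene neur (chr3R:9020348-9039471, minus strand) encodes Neuralized, a ubiquitin ligase that promotes uptake of the ligand into the cell that sends the signal. It had a thresholded peak in the gene body, in an intron of 15.3 kb, at 1739 bp downstream of its internal start site and 7479 bp downstream of the first (chr3R:9031784-9032199). The pooled signal was 151.3, at rank 782, with 72.3 in replicate 1 and 79.0 in replicate 3. A region 245 bp upstream of the internal start site had a signal of 77.6, at rank 2860, just outside the thresholded list. That region was at 45.5 in replicate 1 and 22.5 in replicate 3. A relaxed region of signal 61.0 lay 573 bp downstream of the first TSS of neur, and its summit was 138 bp downstream of the TSS of the neighbouring gene hyx, so it may be counted for either gene.

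Of the nuclear components, mam had 4 thresholded peaks, while Su(H) and H had none. Su(H) (chr2L:15039488-15043334, plus strand) encodes the DNA-binding protein of the pathway and H (chr3R:20621938-20628915, plus strand) encodes Hairless, its corepressor adaptor. At Su(H) a single relaxed region stood 38 bp upstream of the TSS with a pooled signal of 65.8, at rank 3943, with 27.9 in replicate 1 and 35.1 in replicate 3. At H the strongest region was not at the promoter but in coding sequence, 1068 bp downstream of the TSS, with a pooled signal of 57.4 and replicate signals of 39.1 and 23.7. No relaxed summit of H was within 500 bp of its TSS in the pooled list or in either replicate.

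Mastermind, encoded by mam (chr2R:13991203-14060356, plus strand), is the coactivator of the Notch complex. Its 69.2 kb body was the longest of the 10 genes and held 41 relaxed summits. The peak near a start site was the weakest of its 4: its summit lay 43 bp downstream of an internal TSS and 18039 bp downstream of the first, with a pooled signal of 83.9 at rank 2460, close to the limit of the list. Its signal was 54.5 in replicate 1, at rank 1829, and 28.6 in replicate 3, at rank 4791, so it was among the 2712 strongest regions of replicate 1 and not of replicate 3. The promoter at the first TSS had a relaxed region of 72.3, at rank 3282, and the third promoter one of 57.4. The other thresholded peaks were in introns, at 7416 bp, 33309 bp and 34011 bp from the first TSS, with pooled signals of 124.1, 123.3 and 119.0. All of them were nearer to a start site of another annotated gene than to one of mam. For the first the distances were close, at 7362 bp and 7416 bp. Those at 33309 bp and 34011 bp lay 4108 bp and 3406 bp upstream of CG18371. In replicate 1 these intronic peaks were at 63.8, 64.0 and 63.6, and in replicate 3 at 59.98, 64.8 and 62.3. The intronic peaks were thus nearly equal to each other and between replicates, unlike the peak near the start site.

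Numb, encoded by numb (chr2L:9437469-9464184, plus strand), is an adaptor protein that limits Notch signalling in one daughter of an asymmetric division. Its thresholded peak was at the internal start site, 122 bp upstream and 12239 bp downstream of the first (chr2L:9449500-9449915). The pooled signal was 98.7, at rank 1796. The signal was 33.7 in replicate 1, at rank 5096, and 68.5 in replicate 3, at rank 884. This peak rested on replicate 3 and was not among the 2712 strongest regions of replicate 1. At the first TSS of numb the strongest relaxed region was at 44.2, with its summit 1 bp upstream.

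**Figure D2:**
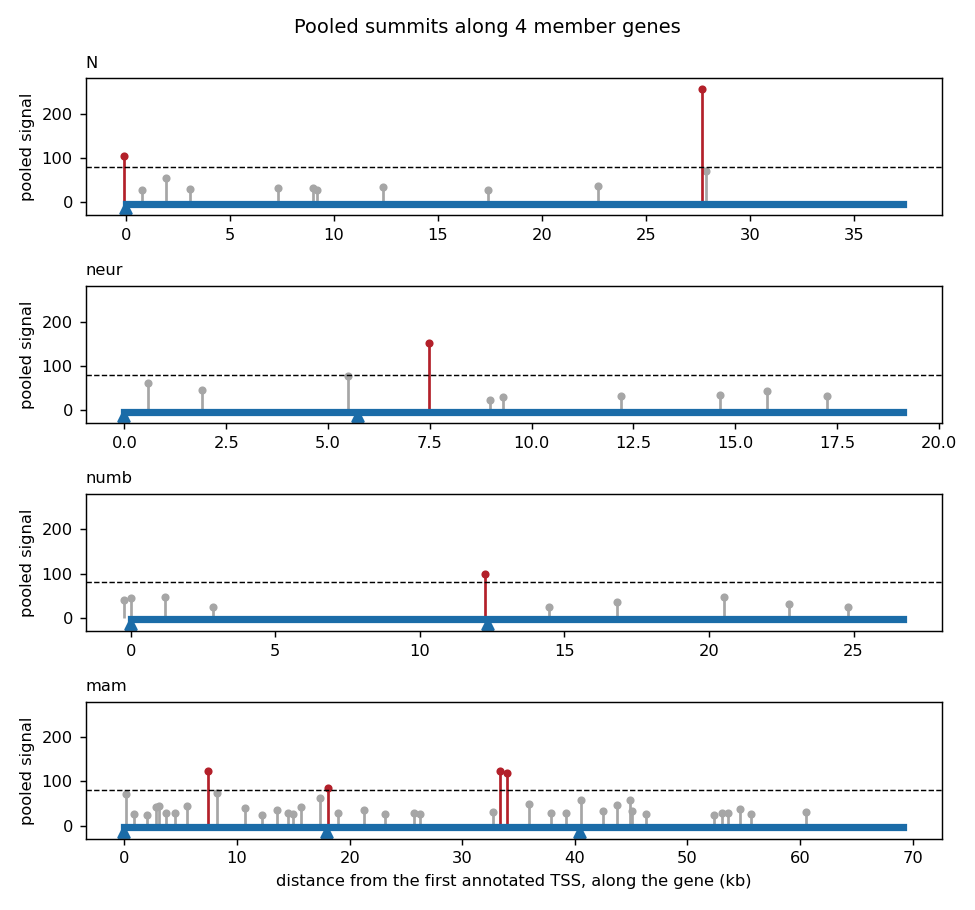
Pooled signal of all summits along N, neur, numb and mam, by distance in kb from the first annotated TSS; red marks thresholded peaks and grey relaxed regions, blue bars are the gene bodies, blue triangles the start sites and the dashed line the weakest thresholded peak. The tall peak of N is 27.7 kb from its TSS, and the peak of numb and the second peak of mam are at internal start sites.

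Gene bodies with a thresholded summit were those of N, neur, mam and numb, 4 of 10, compared with 7.4% of all genes and 36.1% of the 1398 genes of at least 15 kb. Of the 6 members of at least 15 kb these were 4, and Dl and Ser were the others. The 10 bodies together held 7 thresholded summits in 0.211 Mb, or 3.32 per 100 kb, compared with 1.93 per 100 kb over all gene bodies. The 7 include the peaks of mam and numb near internal start sites. Without positions within 500 bp of a TSS, 5 summits were left. The members were chosen with earlier results of these data known, so neither the 4 genes nor this density is a result about Notch genes. The density of 3.32 rested on mam, which held 4 of the 7: without it the other 9 bodies had 2.11 per 100 kb, and 6 of them had none. Relaxed summits were at 41.2 per 100 kb in the 10 bodies, 32.4 without mam and 24.9 over all gene bodies. They ranged widely, with 59.3 per 100 kb in mam, 13.5 in Ser and no summit in Su(H) or E(spl)m7-HLH. The bodies of neur and mam had 5.23 and 5.78 thresholded summits per 100 kb, and those of N and numb 2.68 and 3.74.

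Both target genes had a thresholded peak, and both summits stood more than 400 bp upstream of the TSS. E(spl)m3-HLH (chr3R:26021823-26023127, plus strand) and E(spl)m7-HLH (chr3R:26037038-26038019, plus strand) encode bHLH repressors. At E(spl)m7-HLH the summit was 429 bp upstream of the TSS (chr3R:26036401-26036816), with a pooled signal of 141.1 at rank 897. The signal was 91.2 in replicate 1, at rank 613, and 72.4 in replicate 3, at rank 806. Those replicate summits lay 297 bp and 488 bp upstream of the TSS, so the replicates marked the same stretch and differed in where its highest point was. At E(spl)m3-HLH the summit was 490 bp upstream of the TSS (chr3R:26021125-26021540), with a pooled signal of 132.1 at rank 1013, and with 75.1 in replicate 1 and 58.8 in replicate 3. This summit was nearer to another start site, 257 bp upstream of lncRNA:CR43644, a non-coding gene on the opposite strand. At both genes a weaker relaxed region overlapped the peak on the side of the gene, with a signal of 78.8 at E(spl)m7-HLH (rank 2770, 228 bp upstream) and of 68.7 at E(spl)m3-HLH (283 bp upstream).

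The distance from the gene's own TSS separated the targets from the other 3 genes with a promoter peak. Summits at N, numb and mam were at -69, -122 and 43 bp, and those of E(spl)m7-HLH and E(spl)m3-HLH at -429 and -490 bp. Among the 1468 thresholded summits within 500 bp of a TSS the median was -61 bp, 74.1% were within 200 bp, and 3.68% were more than 400 bp upstream. These shares are by the nearest TSS of any gene, an unlike measure for E(spl)m3-HLH. By it the E(spl)m3-HLH summit is at -257 bp, from lncRNA:CR43644, and of the targets only E(spl)m7-HLH is more than 400 bp upstream. With a window of 200 bp the count fell from 5 to 3 genes, leaving N, numb and mam, and the share of all genes fell from 10.6% to 7.49%. Without replicate 3, taking the 2712 strongest regions of replicate 1, the count was also 3, with N, mam and E(spl)m7-HLH left. The summit of the E(spl)m3-HLH peak lay 25 bp farther upstream in replicate 1 and 13 bp farther in replicate 3, just outside the window of 500 bp in both. Without replicate 1 the gene was still counted through another region of replicate 3, 300 bp upstream of the TSS, at rank 1390 in that list.

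**Figure D3:**
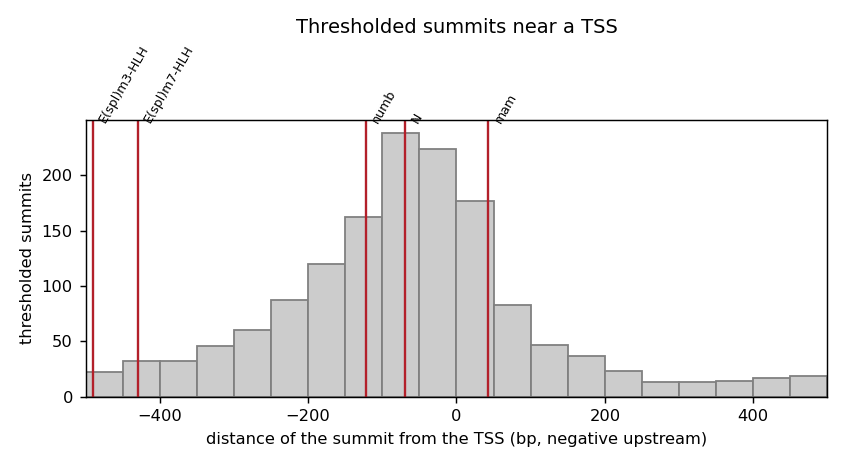
Number of thresholded summits by distance from the nearest TSS in bins of 50 bp, with red lines at the distance of each member's promoter summit from its own TSS. N, numb and mam lie within 200 bp of the TSS, and both E(spl) genes lie in the sparse upstream tail; the summit of E(spl)m3-HLH is nearer to lncRNA:CR43644 and counts in the bars at that distance.

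The sequences around the summits are shown because the windows of the targets had the lowest GC content of the 10 peaks and because target genes are known to be bound by Su(H). Each is the plus strand of the dm6 reference, from RefSeq's Release 6 assembly, over 50 bp on either side of the pooled summit. Capitals mark E-boxes (CANNTG), the general site of bHLH proteins.
E(spl)m3-HLH (chr3R:26021283-26021383): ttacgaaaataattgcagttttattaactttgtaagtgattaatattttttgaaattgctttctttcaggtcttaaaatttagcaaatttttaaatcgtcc
E(spl)m7-HLH (chr3R:26036559-26036659): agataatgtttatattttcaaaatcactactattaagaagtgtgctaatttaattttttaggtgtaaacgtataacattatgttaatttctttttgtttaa
N promoter (chrX:3134751-3134851): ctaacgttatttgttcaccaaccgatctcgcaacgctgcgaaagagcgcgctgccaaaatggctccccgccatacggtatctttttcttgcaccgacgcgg
N intron (chrX:3162517-3162617): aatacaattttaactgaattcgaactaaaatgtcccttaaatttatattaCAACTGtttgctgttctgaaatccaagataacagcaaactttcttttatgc
numb internal promoter (chr2L:9449658-9449758): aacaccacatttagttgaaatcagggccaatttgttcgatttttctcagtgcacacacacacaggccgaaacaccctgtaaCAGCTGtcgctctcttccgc
The windows of E(spl)m3-HLH and E(spl)m7-HLH were rich in A and T, with a GC content of 22.8% and 19.8%. Over all thresholded peaks the mean was 38.5% (SD 9.14), and the window of E(spl)m7-HLH was among the 10 poorest in GC, or 0.369% of the peaks. That of E(spl)m3-HLH was among the poorest 2.14%. The values depend on which summit is taken. Windows at the overlapping relaxed summits had 40.6% at E(spl)m7-HLH and 31.7% at E(spl)m3-HLH. At E(spl)m7-HLH the replicate 1 summit lay 132 bp from the pooled summit, outside the window. The promoter windows of N, mam and numb had 54.5%, 49.5% and 47.5%, compared with a mean of 41.0% (SD 9.72) over summits within 200 bp of a TSS. The intronic windows had 27.7% in N, 32.7% in neur, and 40.6%, 34.7% and 32.7% in mam. By the nearest TSS of any gene, the summit of E(spl)m7-HLH belonged to those more than 400 and up to 500 bp away, with a mean of 38.2% (SD 9.92, n = 92). That of E(spl)m3-HLH belonged to those more than 200 and up to 400 bp away, with a mean of 36.8% (SD 8.63, n = 288).

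Sites of the pathway's own factors, and the Forkhead core and the DNA replication-related element, were searched on both strands. All were chosen with earlier results of these data known. A Su(H) site was taken as TGTGGGAA, CGTGGGAA, TGTGAGAA or CGTGAGAA. None lay within 50 bp of the summit of any of the 10 thresholded peaks at or in the 10 genes, compared with 0.627% of all thresholded peaks and 1.07% of the 26648 relaxed regions that overlapped none. Over whole regions of about 416 bp, a Su(H) site was present in 4.28% of thresholded peaks, and among the members' peaks in the intronic peak of N alone, starting 197 bp before the summit. An E-box within 50 bp was at 38.8% of thresholded peaks and 42.6% of the relaxed regions without one. Among the members' peaks it was at the N intron, at numb and at the internal promoter of mam. The E-box form CACGTG, the Forkhead core TGTTTAC and the DNA replication-related element TATCGATA were within 50 bp of none of these 10 summits. All are rare, at 1.18%, 5.38% and 2.10% of thresholded peaks, and at 1.44%, 2.57% and 0.728% of those relaxed regions. The N box CACNAG, at 11.0% of thresholded peaks and 14% of those relaxed regions, was also found at none. Over whole regions E-boxes and N boxes are common, at 85.3% and 39.1% of thresholded peaks. The E(spl)m7-HLH peak then held 3 E-boxes and 1 N box, and that of E(spl)m3-HLH 1 E-box. Of the members' peaks only the N promoter peak and the mam peak 7416 bp from the first TSS had no E-box. None but that of E(spl)m7-HLH had an N box.

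The E(spl) complex was then read as a whole, gene by gene in map order. It is a cluster of 12 genes followed by gro, which encodes the corepressor Groucho, over 52.3 kb (chr3R:25997621-26049911). The span held 6 thresholded summits, or 11.5 per 100 kb, compared with 2.03 per 100 kb over the main arms. Those of E(spl)m3-HLH and E(spl)m7-HLH are among the 6. Both genes were chosen with their peaks known, so this density is not a result about the complex. Of the 13 genes 3 had one within 500 bp of a TSS: E(spl)m3-HLH, E(spl)m7-HLH and gro. The first 2 were chosen with their peaks known, which leaves 1 of the 11 other genes. Those 11 are in the pathway list, which was also chosen with earlier results of these data known. Of protein-coding genes 12.6% had such a summit. Of the 7 bHLH genes 2 had one, and E(spl)mdelta-HLH, E(spl)mgamma-HLH, E(spl)mbeta-HLH, E(spl)m5-HLH and E(spl)m8-HLH had none. At E(spl)mdelta-HLH, E(spl)mbeta-HLH and E(spl)m5-HLH the strongest relaxed promoter signals were 25.7, 47.6 and 40.2. E(spl)mgamma-HLH and E(spl)m8-HLH had no relaxed promoter summit in the pooled list.

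The strongest peak of the complex was in gro, 137 bp upstream of an internal TSS (chr3R:26042365-26042596), with a pooled signal of 382.6 at rank 96. It was also the strongest near a start site among all 43 pathway genes found, at 203.7 in replicate 1 and 176.8 in replicate 3. A second peak of gro, at 91.9, was 25 bp downstream of its first TSS. Between E(spl)mbeta-HLH and E(spl)malpha-BFM an intergenic peak of 198.3 stood 1824 bp upstream of E(spl)malpha-BFM, a gene of the Bearded family of Notch pathway regulators, and another of 108.1 lay 813 bp downstream of the TSS of that gene. The other 29 relaxed summits in the span had signals from 22.8 to 78.8.

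**Figure D4:**
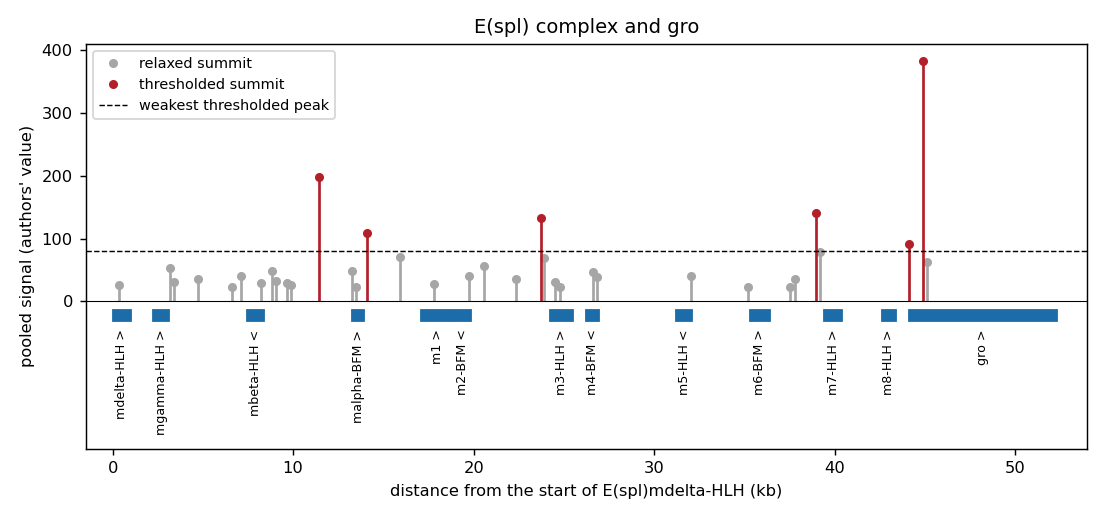
Pooled signal of all summits across the E(spl) complex and gro, by distance in kb from the start of E(spl)mdelta-HLH; blue boxes are the genes, with > for the plus and < for the minus strand. Red thresholded summits stand on both sides of E(spl)malpha-BFM, upstream of E(spl)m3-HLH and E(spl)m7-HLH, and in gro, where the highest is at 382.6.

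Other pathway genes with a promoter peak were found at separate steps of the pathway. Of 6 genes for receptor proteolysis 2 had one: aph-1, a gamma-secretase subunit gene (155.1, with a second peak of 126.5), and kul, which encodes a metalloprotease of the ADAM family (85.2). The signal at kul was 28.8 in replicate 1, at rank 7178, and 52.3 in replicate 3, at rank 1474. The replicate 1 value is of an overlapping region with its summit 210 bp downstream of the TSS. That of replicate 3 was 82 bp upstream. Without replicate 3 kul was not counted. Of 3 glycosylation genes 1 had one, rumi, which encodes a protein O-glucosyltransferase acting on Notch (198.6). Of the 8 genes grouped with numb, the other one was AP-2alpha, a subunit of the clathrin adaptor (237.0). The peaks of 3 genes were shared with a neighbour: that of rumi lay 231 bp upstream of Usp12-46 and CG7029, the stronger one of aph-1 311 bp upstream of Snx21, and that of AP-2alpha 148 bp upstream of ebi. In gene bodies, away from start sites, there were peaks in introns of fng (126.3), aux (145.1 and 84.4) and CtBP (84.0), which encode the glycosyltransferase Fringe, the chaperone cofactor auxilin and a corepressor. Those of aux were nearest to a start site of another gene, CG14636, at 1062 bp downstream and 542 bp upstream of it. None of the 4 Bearded family genes found outside the E(spl) complex, Brd, Tom, Ocho and BobA, had a thresholded peak at the promoter or in the body.

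The replicates were compared at the 10 thresholded peaks at or in the members. The log2 ratio of replicate 1 to replicate 3 ran from -1.02 at numb to 0.93 at the promoter peak of mam. Over all thresholded peaks its median was 0.18 (SD 0.51), so replicate 1 was slightly higher in general. Replicate 1 was higher at 7 of the 10 peaks. Only the peak of numb lay more than 2 SD from the general median. At both E(spl) genes the ratios were 0.35 and 0.33, less than 1 SD from it. With 2 replicates in 1 group, no test between conditions could be made.

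**Figure D5:**
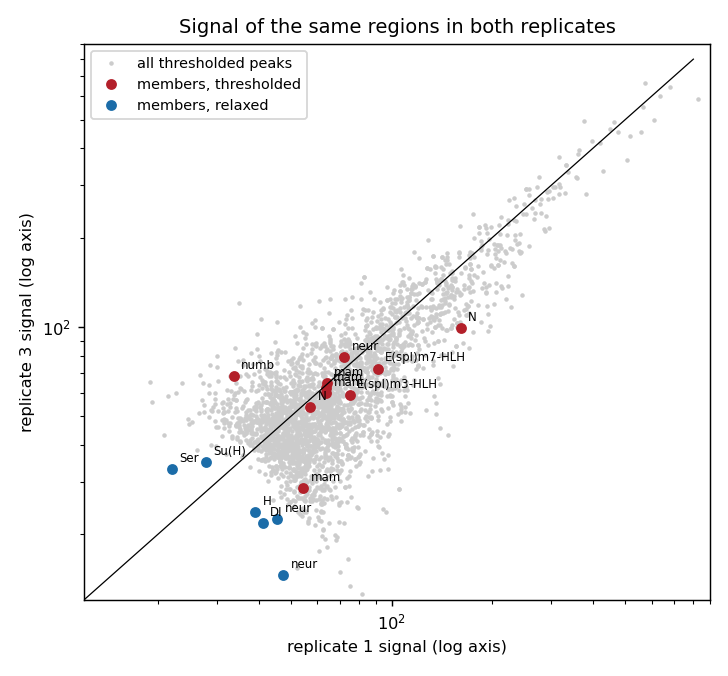
Signal in replicate 1 against replicate 3 (both log axes) for all thresholded peaks (grey), the members' thresholded peaks (red) and the leading relaxed regions of Dl, Ser, neur, Su(H) and H (blue); the line marks equal signal. The peak of numb lies above the line at 33.7 and 68.5, the promoter peak of mam below it at 54.5 and 28.6, and the intronic peak of N is the highest of the members in both replicates.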

How the data were processed

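Peak lists from ChIP-seq of 2 replicates were analysed in the dm6 build. According to the deposited notes, each relaxed list was derived from the replicate alignments and 1 further file that the notes do not describe, and the thresholded list from the 3 relaxed lists by irreproducible discovery rate. No source used here names the caller, its version or the normalization. The signal value of each region is the authors' own, and regions were ranked by it within each list. Only comparisons between the replicates, by their signals or by the ratio of these, set it across lists. The deposited -log10 of the q-value was read and not used to rank. Read depth is unknown. A control and the dm3 lists were not used here.

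Genes were taken from the Ensembl release 115 annotation on 6 main arms, without transposons. Coordinates are 1-based. Promoter summits are those up to 500 bp from any annotated TSS of a gene, and body summits those between its start and end. A replicate's signal at a region is that of its strongest relaxed region sharing at least 1 bp. Sequence was read from the RefSeq Release 6 genome, in which all regions of the lists ended within the arms. Python 3.11.15 was used, and the distance code was tested on simulated data.

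No test was made, since there was 1 group and no contrast. The members, pathway list and sites were chosen with earlier results of these data known. All 10 members are named; other pathway genes are named where they had a thresholded peak or belong to a count of 5 or fewer, and neighbours where they share a peak. Of 45 pathway symbols 43 were found in the annotation. The search for sites over whole regions, the share of genes of at least 15 kb and the shares by number of start sites were added after seeing the data. So were the comparisons of GC content and the densities without mam.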

Additional observations from a re-analysis of the deposited data

How the results depend on the processing

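The count of members with a thresholded promoter summit depended on the window, the list and the replicate. It was 5 as reported, 5 with a window of 1000 bp or any overlap of the peak with the window, 3 with a window of 200 bp (both E(spl) genes lost), and 2 in the stronger 50% of the peaks (both E(spl) genes left). Taking as many top regions of a single replicate gave 3 to 5 genes. Without replicate 3 the genes were N, mam and E(spl)m7-HLH. The summit of the E(spl)m3-HLH peak lay outside the window in both replicates, 25 bp and 13 bp farther upstream, and numb was lost by its rank. Without replicate 1 E(spl)m3-HLH stayed through another region 300 bp upstream and mam through one 209 bp downstream of a TSS, as the rank of its main promoter peak fell to 4791. In the E(spl) complex with gro the count was 3, and 1 with the window of 200 bp. It was 2 to 3 with a replicate left out. For the pathway list the count was 10, and 6 in the stronger 50% of the peaks, a cut that took all genes from 1920 to 1018. Of the pathway list 8 to 11 genes had a peak with a replicate left out. The 7 summits in member bodies became 9 with either replicate left out and 5 to 10 in the other settings. The median log2 ratio of the replicates was 0.0917, and 0.0898 when summits had to lie within 100 bp, which could be matched at 9 of 10 peaks. The lists have no read counts, so no depth limit can be given. No paired analysis was possible because there was 1 group.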
